A study of Rattus norvegicus with 4 samples.

Results

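The genes described here are 10 genes of the ErbB receptor system, chosen by name: the receptors Egfr, Erbb2, Erbb3 and Erbb4, the ligands Nrg1, Btc, Hbegf and Tgfa, and the inhibitors Errfi1 and Lrig1. Of these, 9 had a row among the 17949 genes of the deposited count table, and all 9 passed the filter of at least 10 counts in at least 2 samples, with 12446 genes in all. Egfr passed only through its 12 counts in each Lenti-GFP sample. The level of Lrig1 was not analysed here. The samples were primary Schwann cells (SCs), the glia that ensheath and myelinate peripheral axons, cultured from rat sciatic nerve and infected with a lentivirus for 48 h. One group (Lenti-AS, n = 2) received a virus that expresses the Egr2-AS, an RNA antisense to the promoter of Egr2, the transcription factor that drives myelination. The control group (Lenti-GFP, n = 2) received a virus that expresses a green fluorescent protein. According to the methods, the Lenti-AS vector carries a red fluorescent reporter, so the reporter and the Egr2-AS cannot be told apart. Both groups were grown in 10% serum with 4 μM forskolin, which raises cAMP, and 5 ng/ml heregulin-β1. Heregulin is a neuregulin, so ErbB3 ligand was supplied to the cells of both groups. Levels are given as CPM, that is counts relative to a library size scaled by edgeR's TMM method. They are not corrected for transcript length and are compared between samples only, never between genes.

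ErbB receptors are receptor tyrosine kinases that pair when a ligand binds. EGFR binds the EGF-like ligands betacellulin, HB-EGF and TGF-α, ErbB3 and ErbB4 bind neuregulins, ErbB4 also binds betacellulin and HB-EGF, and ErbB2 binds no ligand and serves as a partner. In SCs, neuregulin 1 on the axon surface acts through the ErbB2 and ErbB3 pair, which SCs need for their survival, migration and myelination. Since ErbB3 has little kinase activity of its own, the pair signals through the kinase of ErbB2. The study examined neuregulin signaling to SCs as an input to the Egr2-AS. From the same RNA-seq it also reported that the genes lowered by the Egr2-AS were enriched for ErbB signaling, ERK1/ERK2 signaling and MAPK regulation. The comparison here asks gene by gene whether members of that system differed in mRNA level when the Egr2-AS was expressed. Enrichment was not tested.

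Total counts lay between 74024323 and 96185890 per sample. Lenti-AS 2 stood apart by its haemoglobin genes, which took 0.311% of its counts against at most 0.000675% in the other samples. Lenti-AS 1 stood apart by Sox10 and Col1a1. Sox10, a transcription factor that defines SCs, had 163 CPM there and 61.2 to 77.1 CPM in the other samples. The collagen gene Col1a1 had 2131 CPM in Lenti-AS 1, 290.1 CPM in Lenti-AS 2 and 721 and 840.4 CPM in the Lenti-GFP samples. The 9 SC markers summed to 8748 and 8956 CPM under Lenti-GFP and to 9399 and 9176 CPM under Lenti-AS, although Gap43 stayed under 0.264 CPM in every sample. Markers of fibroblasts (7 genes) summed to 4366 and 3915 CPM under Lenti-GFP and 4557 and 2973 CPM under Lenti-AS. The highest was Col3a1, and Thy1, Dcn and Lum were at 0 in at least 1 sample. The 6 macrophage markers summed to 3.52 to 4.43 CPM, with Aif1 and Adgre1 at 0 in at least 1 sample. The 5 endothelial markers summed to 20.7 and 20.5 CPM under Lenti-GFP and 15.8 and 15.1 CPM under Lenti-AS, nearly all of it Tek, with Cdh5 and Emcn at 0 in at least 1 sample. The 5 neuronal markers summed to 192 and 201 CPM and to 149 and 154 CPM, nearly all Nefl and Tubb3, with Rbfox3 and Snap25 at 0 in at least 1 sample. The 7 erythroid markers measured summed to 8.52 to 11.1 CPM in the other samples and to 3004 CPM in Lenti-AS 2. In such bulk samples, fewer cells of a type and less RNA per cell cannot be told apart.

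Among the 9 genes tested, 1 was called, Btc, which was lower in Lenti-AS. A gene was called at an adjusted p (Benjamini-Hochberg over all genes tested) under 0.05 if its fitted fold was also 1.3 or more in either direction, with the quasi-likelihood test of edgeR. Over all genes tested 0.667% were called lower by that rule, and a single gene of 9 is too few to set a share against it. The second ligand, Hbegf, had a larger fold difference in the same direction and an adjusted p of 0.0715 from the same test. No gene of the 9 was called higher, where 1.31% of all genes were. At an unadjusted p under 0.05 there was 1 higher gene, Erbb3, and 2 lower genes, Btc and Hbegf, where 21.8% of all genes tested passed in either direction. With DESeq2, the tool the methods name, Btc and Hbegf were both called lower and 0 genes were called higher, where DESeq2 called 1.39% of the genes with an adjusted p lower and 4.86% higher. The median log2 fold change was 0.29 over the 4 receptors and -0.23 over the 4 ligands, and 0.0071 over all genes tested. In each set 1 gene went the other way, and 4 genes are too few to read a direction from. The receptors include Egfr, near the floor of the assay, and Erbb4, whose value was 0.0671 without Lenti-AS 2.

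**Figure D1:**
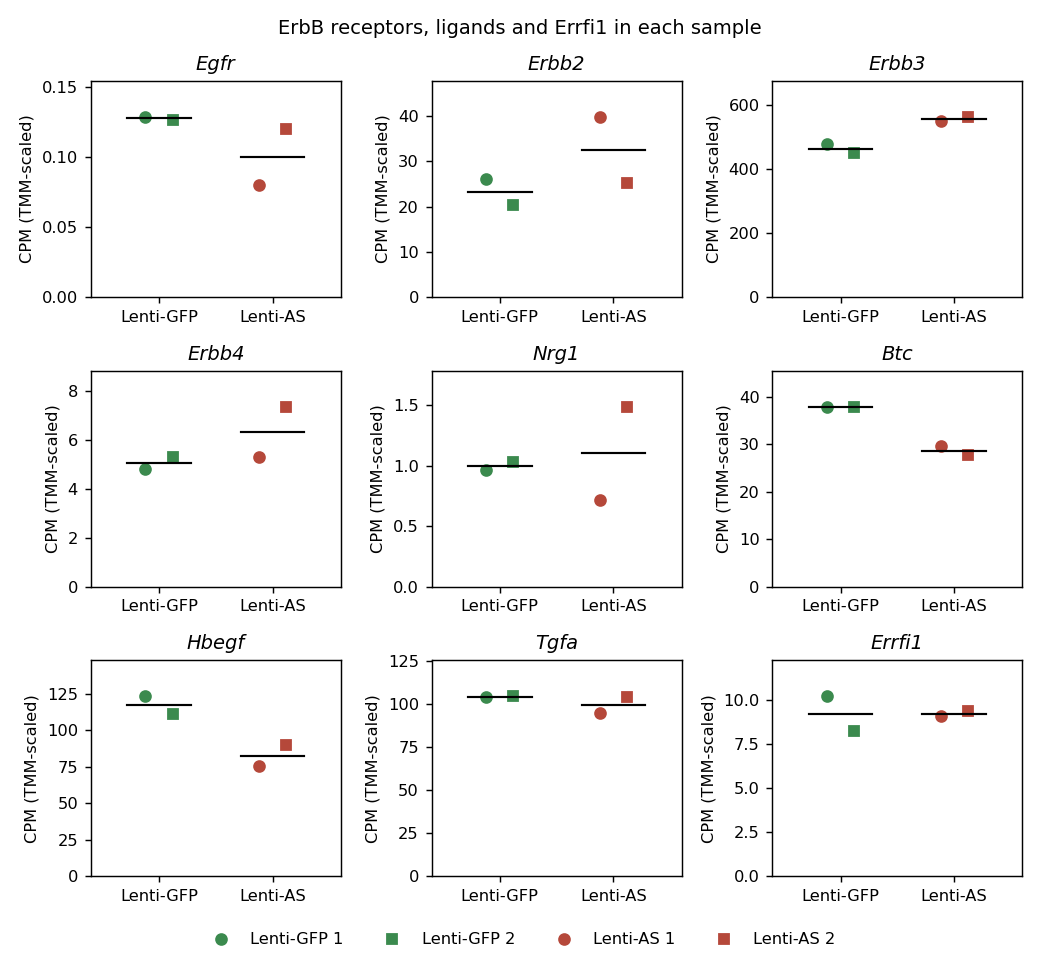
Level of each gene in each sample, in CPM on TMM-scaled library sizes (y axis, from 0, a scale of its own in each panel), for Lenti-GFP (green) and Lenti-AS (red). Circles are replicate 1, squares replicate 2, and bars the group means. The Lenti-AS samples lay below both Lenti-GFP samples for Btc and Hbegf and above both for Erbb3, while for Erbb2 the sample Lenti-AS 1 was high alone at 39.8 CPM.

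The receptor with the clearest separation was Erbb3, the neuregulin receptor of SCs. Erbb3 had 477 and 448 CPM under Lenti-GFP and 550 and 562 CPM under Lenti-AS, from 42214 to 48200 counts per sample. Both Lenti-AS samples lay above both Lenti-GFP samples, and the nearest samples were 73.0 CPM apart, whereas the replicates were 28.8 CPM (Lenti-GFP) and 11.6 CPM (Lenti-AS) apart. The group values were 462 ± 20.4 CPM (SD, n = 2) and 556 ± 8.20 CPM (SD, n = 2), a fold of 1.202 with a 95% interval of 1.09 to 1.32. On the log2 scale this was 0.26 (standard error 0.06). The edgeR fit gave an unadjusted p = 0.00338 and an adjusted p = 0.0788. DESeq2 gave an adjusted p = 0.00141 at the same size of difference. The fold is under the 1.3 that a call asks for, so Erbb3 was called by neither tool.

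Erbb2, the partner that supplies the kinase, had 26.0 and 20.4 CPM under Lenti-GFP and 39.8 and 25.3 CPM under Lenti-AS. The groups overlapped, and the Lenti-AS samples differed from one another 1.57-fold. The fitted fold was 1.40 with a 95% interval of 0.959 to 2.05 (a log2 value of 0.49 ± 0.22, SE; adjusted p = 0.267 in the edgeR fit). The value rests on Lenti-AS 1, the sample in which Sox10 and Col1a1 were also high. Without Lenti-AS 1 the log2 fold change of Erbb2 was 0.12, and without Lenti-AS 2 it was 0.78. The second value passed the threshold, but a fit without a Lenti-AS sample takes its spread from the Lenti-GFP pair alone and assumes that the lone Lenti-AS sample varies like it, so calls from such fits say nothing of the spread within Lenti-AS. The part of that sample's other differences in the Erbb2 value was not tested.

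Since ErbB3 and ErbB2 act as a pair, the ratio of their counts was taken within each sample, where the scaling between samples drops out. The Erbb3 to Erbb2 ratio was 18.3 and 21.9 in the Lenti-GFP samples and 13.8 and 22.2 in the Lenti-AS samples. Lenti-AS 1 had the lowest ratio and Lenti-AS 2 the highest, so the groups overlapped. The log2 ratio was 4.33 ± 0.18 (SD, n = 2) in Lenti-GFP and 4.13 ± 0.48 (SD, n = 2) in Lenti-AS, and an exact two-sided permutation test gave p = 1, where 2 samples against 2 cannot go below 0.33. The ratio of counts is not a ratio of molecules, because the transcripts differ in length.

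Erbb4, a receptor for neuregulins and for betacellulin, had 4.82 and 5.33 CPM under Lenti-GFP and 5.32 and 7.37 CPM under Lenti-AS, from 450 to 554 counts per sample. Lenti-AS 2 was high and Lenti-AS 1 lay between the Lenti-GFP samples. The fitted fold of Erbb4 was 1.25 with a 95% interval of 0.904 to 1.72 (adjusted p = 0.371 in the edgeR fit). Without Lenti-AS 1 the log2 fold change of Erbb4 was 0.54, past the threshold with a lone Lenti-AS sample, and without Lenti-AS 2 it was 0.0671. Egfr was near the floor of the assay, with 12 and 12 counts in Lenti-GFP and 7 and 9 counts in Lenti-AS, that is 0.0799 to 0.129 CPM. Its fold of 0.777 had a 95% interval of 0.325 to 1.86, and no difference was detectable at this depth (adjusted p = 0.712 from the same test).

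The ligand Btc, which encodes betacellulin, had 37.8 and 37.9 CPM under Lenti-GFP and 29.6 and 27.8 CPM under Lenti-AS, from 3529, 3596, 2592 and 2086 counts. Both Lenti-AS samples were lower than both Lenti-GFP samples, by at least 8.23 CPM, whereas the replicates were 0.136 CPM (Lenti-GFP) and 1.82 CPM (Lenti-AS) apart. Btc fell from 37.9 ± 0.0960 CPM (SD, n = 2) to 28.7 ± 1.29 CPM (SD, n = 2). This is a log2 fold change of -0.40 (standard error 0.07), a fall to 0.757 of the Lenti-GFP level with a 95% interval of 0.675 to 0.849, and 4.42% of all genes tested had a lower value. The adjusted p of 0.0499 in the edgeR fit lay just inside the threshold, and 5 alternatives to the scaling, filter or form of the test gave 0.0503 to 0.0547. The other such alternatives within edgeR gave 0.0284 to 0.0492, and the replicate number as a block gave 0.129. DESeq2 gave 0.000404. When single samples were left out, the log2 value of Btc lay between -0.45 and -0.36, but the call was lost without Lenti-GFP 1 (adjusted p = 0.378 in the edgeR fit), without Lenti-GFP 2 (0.509) and, by its fold alone, without Lenti-AS 2 (0.000767). The summed neuronal and endothelial markers were lower in both Lenti-AS samples as well, but nearly all of each sum was Nefl and Tubb3, or Tek. Nefl was called lower (adjusted p = 0.0303 in the edgeR fit). The other markers of these lists lay under 1 CPM. Of them Pecam1, Cdh5, Kdr, Snap25 and Syt1 overlapped between the groups, Emcn was lower and Rbfox3 higher. The fibroblast marker Col3a1 was also lower in both Lenti-AS samples (2198 and 2400 CPM against 3260 and 2955 CPM), while Col1a1, Pdgfra and Pdgfrb overlapped. The part of these differences in the Btc value was not tested.

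Hbegf, the gene of heparin-binding EGF-like growth factor, had 123 and 111 CPM under Lenti-GFP and 75.6 and 89.8 CPM under Lenti-AS, from 11503, 10531, 6625 and 6755 counts. The groups did not overlap, being at least 21.2 CPM apart, whereas the replicates were 12.1 CPM (Lenti-GFP) and 14.3 CPM (Lenti-AS) apart. Group values were 117 ± 8.57 CPM (SD, n = 2) and 82.7 ± 10.1 CPM (SD, n = 2), a fold of 0.706 with a 95% interval of 0.594 to 0.838. On the log2 scale this was -0.50 (standard error 0.10). The edgeR fit gave an unadjusted p = 0.0026 and an adjusted p = 0.0715. The call depended on the test, since DESeq2 gave an adjusted p = 0.000124 and edgeR's likelihood ratio test one of 0.0234. Hbegf was not called without Lenti-GFP 1 (adjusted p = 0.464 in the edgeR fit) or without Lenti-GFP 2 (0.447), and it was called without Lenti-AS 1 and without Lenti-AS 2, where the spread comes from the Lenti-GFP pair alone. Of all genes tested, 3.31% had a lower log2 fold change.

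Tgfa, the gene of transforming growth factor α, another EGFR ligand, had 103.8 and 104.4 CPM under Lenti-GFP and 94.5 and 104.3 CPM under Lenti-AS. Lenti-AS 1 was the lowest sample, and Lenti-AS 2 lay within the range of the Lenti-GFP samples. The fold of Tgfa was 0.955 with a 95% interval of 0.849 to 1.07 (adjusted p = 0.606 in the edgeR fit), so a difference as large as the 1.3-fold of the call lay outside the interval. Nrg1, the gene of the neuregulin that binds ErbB3, had 0.964 and 1.03 CPM under Lenti-GFP and 0.719 and 1.49 CPM under Lenti-AS, from 90, 98, 63 and 112 counts. One Lenti-AS sample was below and the other above both Lenti-GFP samples, a 2.07-fold difference between replicates. The fold of 1.10 had a 95% interval of 0.578 to 2.09 and its log2 value changed sign with the sample left out, at -0.47 without Lenti-AS 2 and 0.58 without Lenti-AS 1 (adjusted p = 0.863 with all samples in the edgeR fit).

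Errfi1, also called Mig6, encodes a protein that binds the kinase domain of activated ErbB receptors and inhibits it. Errfi1 had 10.2 and 8.27 CPM under Lenti-GFP and 9.09 and 9.38 CPM under Lenti-AS, so both Lenti-AS samples lay between the Lenti-GFP samples. The fold was 0.998 with a 95% interval of 0.794 to 1.26 (adjusted p = 0.993 in the edgeR fit).

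**Figure D2:**
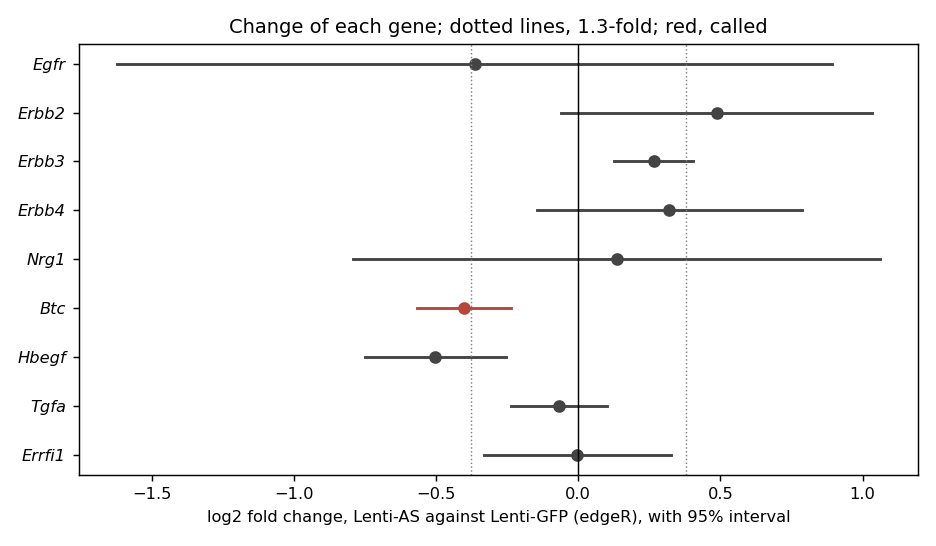
Log2 fold change of each gene in Lenti-AS against Lenti-GFP (points) from edgeR's quasi-likelihood fit with its 95% interval (lines), on the x axis, one gene a row. Dotted lines mark 1.3-fold in each direction. The intervals of Btc and Hbegf lie below 0 and that of Erbb3 above 0, only Btc (red) was called, and the intervals of Egfr (0.325 to 1.86-fold) and Nrg1 (0.578 to 2.09-fold) are the widest.

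Both Lenti-AS samples were below both Lenti-GFP samples for 3 of the 9 genes (Btc, Hbegf and Egfr) and above them for 1 (Erbb3), and the groups overlapped for the other 5. Egfr is no support for a direction, since it passed the filter through its Lenti-GFP counts. Among all 12446 genes both Lenti-AS samples lay below for 27.2% and above for 27.7%. These shares are of the same order, so the separation of the groups by itself does not set the 9 genes apart. When single samples were left out, Btc, Hbegf, Erbb3, Erbb2 and Erbb4 kept the sign of their log2 fold change. Erbb3 ranged from 0.22 to 0.31 and Hbegf from -0.63 to -0.38, whereas Erbb2 ranged from 0.12 to 0.78 and Erbb4 from 0.0671 to 0.54.

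**Figure D3:**
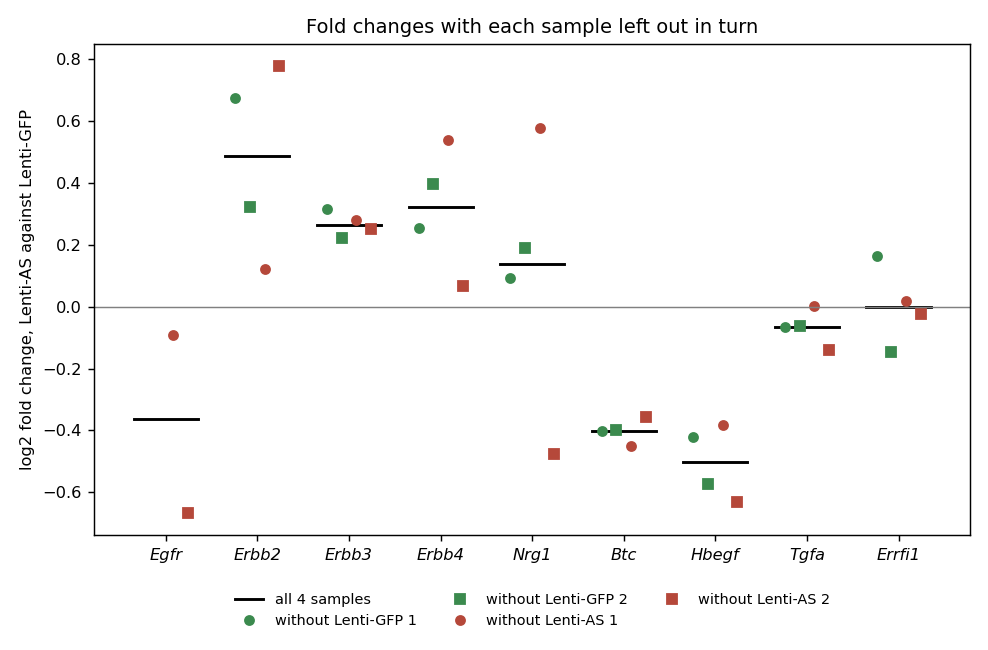
Log2 fold change of each gene (y axis) with all 4 samples (bars) and with 1 sample left out (green, a Lenti-GFP sample; red, a Lenti-AS sample; circles, replicate 1; squares, replicate 2). The points of Btc stay between -0.45 and -0.36 and those of Erbb3 between 0.22 and 0.31, whereas those of Nrg1 cross 0. Egfr has no point without a Lenti-GFP sample, since it then failed the filter on low counts.

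The sequence upstream of the ligand genes is shown to set the genes with lower levels, Btc and Hbegf, beside Tgfa, whose level differed little. The windows are the 250 bases before the gene's start, from RefSeq on the GRCr8 assembly, which is not the rn6 assembly of the counts. Of the 10 genes, 8 matched by symbol, and Erbb3 and Nrg1 did not. Capitals mark matches on either strand to 6 motifs: AP-1 (TGANTCA), EGR (GCGNGGGCG), YY1 (AANATGGCG), the core of the cAMP response element (TGACG), the TATA box (TATAAA) and the GC box (GGGCGG). The first 3 are motifs of factors that the study discusses, and the matches shown do not overlap one another. Btc lies on the plus strand at chr14:16992418-16992667, Hbegf on the minus strand at chr18:28390221-28390470 and Tgfa on the plus strand at chr4:120175469-120175718.
Btc: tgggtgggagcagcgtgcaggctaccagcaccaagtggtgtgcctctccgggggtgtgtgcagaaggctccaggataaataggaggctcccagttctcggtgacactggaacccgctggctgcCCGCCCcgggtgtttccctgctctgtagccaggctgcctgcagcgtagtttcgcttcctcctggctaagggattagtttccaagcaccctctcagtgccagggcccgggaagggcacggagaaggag
Hbegf: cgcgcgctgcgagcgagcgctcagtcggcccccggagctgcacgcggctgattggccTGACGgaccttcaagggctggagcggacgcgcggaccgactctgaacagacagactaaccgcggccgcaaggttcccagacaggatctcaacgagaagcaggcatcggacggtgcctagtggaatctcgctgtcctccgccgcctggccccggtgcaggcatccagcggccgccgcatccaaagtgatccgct
Tgfa: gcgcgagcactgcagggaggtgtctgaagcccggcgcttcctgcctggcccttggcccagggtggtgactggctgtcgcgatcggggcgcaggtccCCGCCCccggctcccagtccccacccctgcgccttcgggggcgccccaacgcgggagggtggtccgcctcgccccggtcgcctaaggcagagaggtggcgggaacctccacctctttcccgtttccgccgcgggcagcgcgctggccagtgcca

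The windows of Btc and Tgfa each held 1 GC box, starting 127 and 154 bases before the gene's start, and that of Hbegf held 1 cAMP element core at 193 bases. A GC box stood in 30.5% and a cAMP element core in 18.2% of all 33469 promoter windows of that length. None of the 8 windows held an AP-1, EGR or YY1 match, which stood in 6.34%, 4.29% and 1.38% of all windows. Errfi1 was alone among the 8 in holding a TATA box (12.9% of all windows), 35 bases before its start, and it also held a cAMP element core and a GC box. The window of Erbb2 held 1 GC box, as did those of Erbb4 and Egfr, and that of Lrig1 held 3. A match is a string of letters and not a measured binding site, and a window without one says nothing of the factor.

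Beyond the named receptors and ligands, 99 other genes of the ErbB pathway were listed by role, of which 94 had a row and 90 were tested. By edgeR 1 of the 90 was called higher and 0 lower, where 1.31% and 0.667% of all genes were, and by DESeq2 4 of those tested were called higher and 2 lower, where 4.86% and 1.39% of all genes with an adjusted p were. At an unadjusted p under 0.05 there were 16 higher and 10 lower genes of the 90, where 21.8% of all genes passed in either direction. The Lenti-AS samples were both above for 25 and both below for 19 of the 90, where 27.7% and 27.2% of all genes were. The median log2 fold change was 0.0452, against 0.0071 over all genes tested. The gene called higher was Tob1, which encodes an antiproliferative protein that associates with ErbB2. Tob1 had 27.7 and 24.7 CPM under Lenti-GFP and 39.6 and 35.8 CPM under Lenti-AS, so the groups did not overlap. Tob1 rose from 26.2 ± 2.12 CPM (SD, n = 2) to 37.7 ± 2.70 CPM (SD, n = 2), with a log2 fold change of 0.53 (standard error 0.09) and an adjusted p = 0.0499 in the edgeR fit. The call of Tob1 was lost under 7 of 15 alternatives, among them those without Lenti-GFP 1 (adjusted p = 0.297) and without Lenti-GFP 2 (0.509).

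Of the 7 other ErbB ligands, Areg and Nrg2 had the smallest unadjusted p among the 4 tested. Areg, the gene of the EGFR ligand amphiregulin, had 1.71 ± 0.154 CPM under Lenti-GFP and 1.31 ± 0.124 CPM under Lenti-AS (SD, n = 2 each; adjusted p = 0.342 in the edgeR fit). Nrg2 had 0.123 ± 0.0690 CPM and 0.221 ± 0.102 CPM (adjusted p = 0.463), near the floor of the assay, and its log2 fold change ranged from 0.27 to 1.55 with a sample left out. Epgn and Ereg failed the filter, with at most 2 and 10 counts in any sample. All 7 proteases that release ligands or cleave receptors, with their cofactors, were tested, with a median log2 fold change of 0.16. Both Lenti-AS samples were above both controls for 5 of the 7, where 27.7% of all genes were, and 7 genes are too few to read a share from. The smallest unadjusted p belonged to Rhbdf1, an inactive rhomboid that helps the sheddase ADAM17 to mature, with 58.45 and 51.6 CPM under Lenti-GFP and 83.7 and 63.8 CPM under Lenti-AS (a log2 value of 0.42 ± 0.14, SE; adjusted p = 0.168 from the same test, and 0.0254 with DESeq2). Ncstn, a subunit of γ-secretase, had 54.6 ± 1.00 and 65.1 ± 7.96 CPM (adjusted p = 0.212). Both values were highest in Lenti-AS 1, and without it the log2 fold change was 0.21 for Rhbdf1 and 0.12 for Ncstn.

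Among 24 adaptors and receptor-proximal enzymes tested, 0 were called by edgeR and 5 were higher and 3 lower at an unadjusted p under 0.05, which 21.8% of all genes passed. Pik3r1, the regulatory subunit of the PI3 kinase that docks on ErbB3, had 55.6 and 55.4 CPM under Lenti-GFP and 82.5 and 72.7 CPM under Lenti-AS. Pik3r1 had a log2 fold change of 0.48 (standard error 0.08) and an adjusted p = 0.0506 in the edgeR fit. It was called higher with DESeq2 (1.37e-05) and under 9 other scalings, filters and tests of edgeR or limma-voom (0.0239 to 0.0499). With the replicate number as a block it was not called (adjusted p = 0.101 from edgeR). Its log2 value ranged from 0.39 to 0.57 with a sample left out, and it was not called when either Lenti-GFP sample was left out. The adaptor gene Shc2 had 24.97 ± 1.58 and 31.2 ± 0.0135 CPM (adjusted p = 0.0845 from edgeR's test). Of 13 genes of the RAS, RAF, MEK, ERK and AKT cascade, Map2k1, which encodes MEK1, had 174 ± 1.52 and 151 ± 4.09 CPM (log2 fold change -0.20, adjusted p = 0.113) and Mapk3, which encodes ERK1, 181 ± 23.7 and 229.8 ± 31.4 CPM (0.34, adjusted p = 0.191). Mapk3 ranged from 0.19 without Lenti-AS 1 to 0.48 without Lenti-GFP 2. The other 11 genes of the cascade overlapped between the groups. Over all genes both Lenti-AS samples lay above for 27.7% and below for 27.2%, and 13 genes are too few to read a share from. The cascade's median log2 fold change was -0.0012. Of 18 genes that restrain the receptors or sort them for turnover, 0 were called by either tool. Over all genes edgeR called 1.31% higher and 0.667% lower, and DESeq2 4.86% and 1.39%. At an unadjusted p under 0.05 there were 2 higher and 2 lower genes of the 18, where 21.8% of all genes passed in either direction. Their smallest unadjusted p belonged to the ubiquitin ligase gene Itch, with 175 ± 7.73 and 150.5 ± 2.31 CPM (adjusted p = 0.112), and to Stam2, an endosomal sorting gene, with 17.8 ± 0.132 and 21.1 ± 0.10 CPM (adjusted p = 0.124). In the group of partners and chaperones, Pa2g4, which encodes an ErbB3-binding protein, had 46.3 ± 0.972 and 56.8 ± 7.59 CPM (adjusted p = 0.180), and its log2 fold change of 0.30 was 0.15 without Lenti-AS 1.

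The 16 genes that respond to ERK downstream of the receptors spread from -0.59 to 0.66 on the log2 scale. Their median was 0.28 and 12 of the 16 were above 0, where 51.3% of all genes were. Both Lenti-AS samples lay above for 5 of the 16 and below for 4, where 27.7% and 27.2% of all genes did, and the groups overlapped for 7. The upward shift rests on Lenti-AS 1: without that sample the median was 0.0159 and 8 of the 16 were above 0. By edgeR 0 of the 16 were called, where 1.31% of all genes were called higher and 0.667% lower. Ier3, an immediate early gene, had 118 and 105 CPM under Lenti-GFP and 82.3 and 83.1 CPM under Lenti-AS, with a log2 fold change of -0.43 (standard error 0.07) and an adjusted p = 0.0506 in the edgeR fit. Dusp6, the phosphatase that switches ERK off, had 761 and 722 CPM under Lenti-GFP and 590.5 and 633 CPM under Lenti-AS (log2 fold change -0.28, adjusted p = 0.0845). In both genes the Lenti-AS samples were below the Lenti-GFP samples. Under 9 other scalings, filters and tests of edgeR or limma-voom the adjusted p of Ier3 ranged from 0.0297 to 0.0629, so its call depended on the setting. With the replicate number as a block it was not called (adjusted p = 0.105 from edgeR). The log2 value of Ier3 ranged from -0.51 to -0.34 with a sample left out, and Ier3 was not called when either Lenti-GFP sample was left out. DESeq2 called Ier3 and Spry1, a feedback inhibitor of RAS signaling, lower and the transcription factor gene Etv5 higher. Spry1 and Etv5 are named after their values were seen. Spry1 had 17.9 and 15.1 CPM under Lenti-GFP and 9.45 and 12.4 CPM under Lenti-AS (adjusted p = 0.116 from edgeR's test and 0.0114 from DESeq2). Etv5 went the other way, with 13.2 and 11.5 CPM under Lenti-GFP and 18.1 and 14.9 CPM under Lenti-AS (adjusted p = 0.140 and 0.0480). Without Lenti-AS 1 the log2 value was -0.41 for Spry1 and 0.28 for Etv5, so the ERK response genes did not share a direction.

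**Figure D4:**
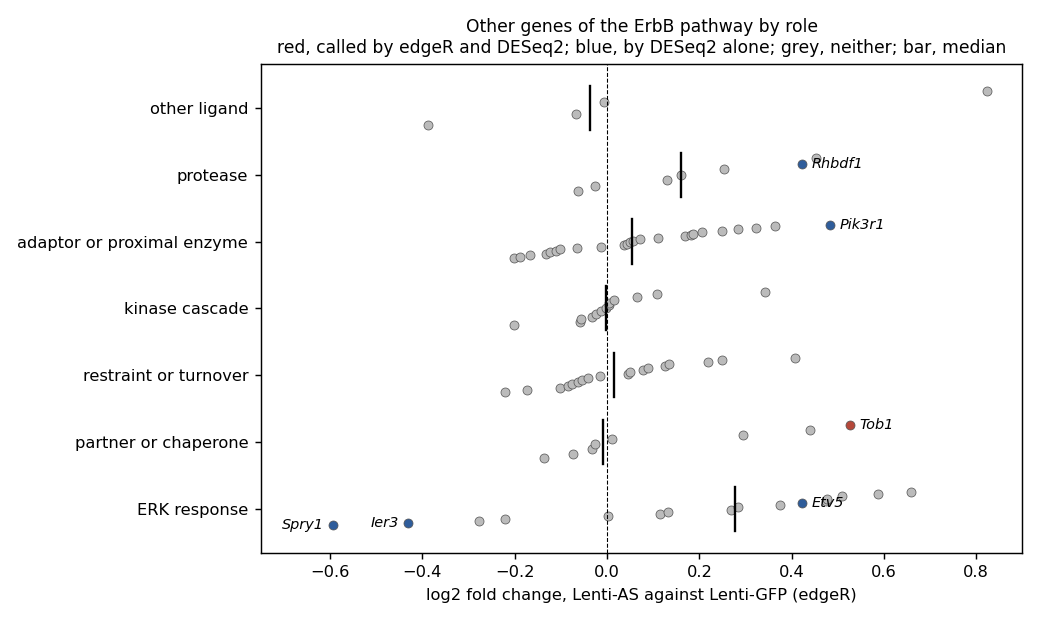
Log2 fold change in Lenti-AS against Lenti-GFP (x axis) of the 90 other ErbB pathway genes tested, by role (y axis). Each point is a gene and each bar the median of its role, red marks a gene called by edgeR and DESeq2, blue a gene called by DESeq2 alone and grey a gene called by neither. Tob1 is the 1 red point, and the ERK response genes spread from -0.59 to 0.66.

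The profile of Btc over the 4 samples was compared with the 10150 other genes whose mean normalized count was at least 100, by the Euclidean distance between log2(CPM + 1) values centred on each gene's mean. The nearest was Schip1, whose product binds the tumor suppressor schwannomin, with 114 and 114 CPM under Lenti-GFP and 88.0 and 83.1 CPM under Lenti-AS (distance 0.0211). The next were the chaperone gene Dnajb4 (distance 0.0222) and Tek (distance 0.0258). Schip1 was called lower (adjusted p = 0.0394 in the edgeR fit), and Dnajb4 and Tek had adjusted p-values of 0.0547 and 0.0559. With 4 samples many profiles lie close to one another, so the distances are a description.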

How the data were processed

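RNA-seq was performed on 4 samples of rat SCs, 2 with Lenti-GFP and 2 with Lenti-AS, grouped by their titles. According to the methods, paired-end reads were aligned by the authors to rn6 with hisat2 and counted per gene with featureCounts over RefSeq exons, while the submitters' processing notes name GSNAP. Versions, the strand setting and the treatment of reads with several matches are not given in the sources used here, so genes with an antisense partner are uncertain. The authors deposited raw counts per gene without normalization. One row that repeats the header was dropped, and no row lacks a gene name.

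The test was edgeR 4.0.16 in R 4.3.3, on genes that reached 10 counts in 2 or more samples (TMM factors, glmQLFit and glmQLFTest, no covariate), with Benjamini-Hochberg adjustment over all 12446 genes. Standard errors were computed from the F statistic and 95% intervals from the t distribution. Alternatives were DESeq2 1.42.0, limma-voom (limma 3.58.1), the likelihood ratio test, the newer quasi-likelihood fit, other scalings and filters, haemoglobin genes left out, a replicate block and leaving out each sample. DESeq2 gave no adjusted p for 2413 genes, Egfr and Nrg1 among them, and its shares are over the other 10033. Counts were also simulated with known changes, all larger than those of Btc and Tob1, at the spread of these same samples. Every changed gene called had the direction set. A run with a wrong direction was set to stop, so this checks the working of the fit and not the calls. The tests missed part of those changes and called more unchanged genes than the threshold allows for, so calls near it, Btc and Tob1 among them, are weak. Changes as small as theirs were not simulated.

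The 10 genes and the lists were chosen with earlier results of these data known, so no p is given over a list. Named pathway genes were those called and the 2 with the smallest unadjusted p in each role. The methods call the samples biological replicates without saying whether they came from separate cultures. The p-values set each group difference against a modelled spread between these samples, which may be technical. Precision is limited by depth and by 2 samples per group. Intervals cover the spread modelled between samples. Annotation of rn6, gene lengths and protein sequences were not used here. Nrg3, Braf, Lrig3, Cbl and Erbin of the pathway list were not analysed here. One gene of the Schwann cell marker list is not reported here.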

Additional observations from a re-analysis of the deposited data

How the results depend on the processing

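The number of listed receptor, ligand and inhibitor genes called lower was 1, and 0 with the filter of 1 CPM, without the haemoglobin genes, with library totals, limma-voom, the newer quasi-likelihood fit or the replicate block, and 2 with DESeq2 or the likelihood ratio test. With each sample left out it ranged from 0 to 2, and the number called higher from 0 to 1. Only 1 gene of all those tested was called without a Lenti-GFP sample, when the lone control is assumed to vary like the Lenti-AS group, as a lone Lenti-AS sample is assumed to vary like the controls. Over all genes 163 were called higher and 83 lower, against 3 and 14 with the replicate block, 488 and 139 with DESeq2, 374 and 147 with the likelihood ratio test, 567 and 278 without Lenti-AS 1 and 1260 and 255 without Lenti-AS 2. The replicate numbers share no stated culture, and deviations from the group means did not go together in samples of one number (r = -0.018 over genes).

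The log2 fold change of Btc kept its direction throughout. It was -0.3982 with the 1 CPM filter (adjusted p = 0.0503), -0.3993 without the haemoglobin genes, -0.3702 with library totals, -0.4008 with limma-voom, -0.4018 with the newer fit and -0.4026 with the replicate block (adjusted p = 0.129 from edgeR), none of them called, and -0.4491 to -0.3569 with a sample left out. Hbegf was called with DESeq2 (-0.5037) and the likelihood ratio test (-0.5023), was not called with the replicate block (-0.5056, adjusted p = 0.129 from edgeR), and ranged from -0.6324 to -0.3832 with a sample left out. Erbb2 ranged from 0.1223 to 0.7759, Erbb4 from 0.0671 to 0.5377, Nrg1 from -0.4744 to 0.5754 and Tgfa from -0.1394 to 0.0027 with a sample left out, with Erbb2 called without Lenti-AS 2 and Erbb4 without Lenti-AS 1, in fits whose spread comes from the Lenti-GFP pair alone. Errfi1, at -0.0024, changed sign to 0.0011 with the 1 CPM filter, 0.0001 without the haemoglobin genes, 0.0290 with library totals, 0.0054 with limma-voom, 0.0046 with the block and 0.0085 with upper-quartile factors, and ranged from -0.1469 to 0.1621. Library totals moved the median of all genes to 0.0389.

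Of the other pathway genes, 1 was called higher, with 4 by DESeq2, 2 each with RLE, library totals, upper-quartile factors, the likelihood ratio test and no low-count filter, and 0 with the replicate block. None was called lower by the planned test, 2 with DESeq2 and the likelihood ratio test, and 1 each with the 1 CPM filter, RLE, without haemoglobin genes, with the newer fit and with no filter. Calls of these genes with a sample left out are not counted here, since the lone sample is assumed to vary like the other group. The median log2 fold change of the listed genes ranged from -0.1394 to 0.1271 with a sample left out, and that of the other pathway genes was 0.0771 with library totals and 0.0171 to 0.0453 with a sample left out. The difference in the log2 Erbb3 to Erbb2 ratio, -0.1943, ranged from -0.5359 to 0.1474. The alternatives for single pathway genes and for each role were added after the data were seen, and none turned the direction of a gene named. The causes of these shifts were not tested.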
